A study of Mus musculus with 10 samples.

Results

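Chromatin accessibility was examined at 8 genes for enzymes that add acetyl groups to histones or remove them: the acetyltransferase genes Ep300, Crebbp, Kat2a, Kat2b and Kat5 and the deacetylase genes Hdac1, Hdac2 and Hdac3. Every interval of 5 ATAC-seq peak lists that overlapped one of these genes, or lay within 5 kb of it, was taken, and overlapping intervals of different lists were merged into 1 region. This gave 48 regions of 211107 in the whole series, 39 at the acetyltransferase genes and 9 at the deacetylase genes. The cells were Myc-CaP, a prostate cancer line of the mouse, harvested after 48 h. Ctrl cells received no agent, Oxali cells 2 µM oxaliplatin, Cispl cells 2 µM cisplatin, IFNγ cells interferon-γ (given in the labels as 1000 pg, with no volume) and Oxali + IFNγ cells 2 µM oxaliplatin with that amount of IFNγ. Each group had 2 libraries, which were pooled before peaks were called, so each group is 1 list and all comparisons below are between pooled lists of 1 cell line.

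Acetyl groups on histone tails loosen the contact of nucleosomes with DNA and are bound by bromodomain proteins. p300 and CBP, the products of Ep300 and Crebbp, are paralogous coactivators that are brought to enhancers and promoters by transcription factors. GCN5 (Kat2a) and PCAF (Kat2b) are alternative catalytic subunits of the SAGA and ATAC complexes, and TIP60 (Kat5) is the catalytic subunit of the NuA4 complex, which acts in transcription and in the DNA damage response. HDAC1 and HDAC2 remove acetyl groups as part of the Sin3, NuRD and CoREST complexes, and HDAC3 acts as part of a nuclear receptor corepressor complex. In this study of how platinum drugs and IFNγ act on cancer cells, the question put to the data was how the accessibility of the genes for these enzymes differed between treated and Ctrl cells.

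The pileup of a region is the number of read ends, each widened to 150 bp, that overlapped its highest point (the summit). It was divided by the genome background of its list, the pileup that evenly spread reads would give, and this quotient is called the level. The genome background was 12.1 in Ctrl, 11.3 after Oxali, 13.8 after Cispl, 9.62 after IFNγ and 12.9 after Oxali + IFNγ, so the IFNγ list was the shallowest. A region called against that background needed a pileup of 18 to 26, and the Cispl list ended at a −log10 p of 2.99 whereas the others reached 2.00. Without replicates no test could be made. Ratios are given with 95% exact binomial (Clopper-Pearson) intervals. These take in counting error and leave out any difference between libraries. In pooled cells, a lower level in every cell and a smaller share of cells with an open site cannot be told apart. Of the markers of prostate epithelium, Krt8 and Hoxb13 had a start-site region in every list and Cdh1 in none. All 4 immune markers had none, the endothelial gene Cdh5 had none and Pecam1 was between 0 and 2.98 in level, whereas of 3 fibroblast genes Col1a1 and Pdgfra had one in every list. The summed fibroblast marker level was 165 in Ctrl, 138 after Oxali, 116 after Cispl, 138 after IFNγ and 115 after Oxali + IFNγ, and its part in the results was not tested.

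Called regions at the 8 genes numbered 33 in Ctrl, 37 after Oxali, 41 after Cispl, 33 after IFNγ and 42 after Oxali + IFNγ. The 3 lists with a platinum drug thus held more regions than Ctrl, and the IFNγ list the same number. Per 100 kb of window this was 6.97, 7.82, 8.66, 6.97 and 8.87 regions in the same order. Around all 21938 protein-coding genes the corresponding densities were 6.59, 8.27, 9.43, 6.37 and 9.21, so the order of the lists at the 8 genes was close to that of genes in general. The genome background, a measure of depth, was 92.9% of that of Ctrl for Oxali, 113% after Cispl, 79.3% after IFNγ and 106% after Oxali + IFNγ, and its part in these counts was not tested. Of the 48 regions, 29 were present in every list and 8 in a single one, beside 43.1% and 23.1% of the 131284 regions around all protein-coding genes. At the start of the gene itself lay 8 regions, 1 for each gene, and 7 others lay at the start of a neighbour (Trap1, Dhx58, Hspb9, Rnaseh2c, Marcksl1 or Diaph1). The rest comprised 26 in introns, 2 in exons, 2 upstream and 3 downstream.

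**Figure D1:**
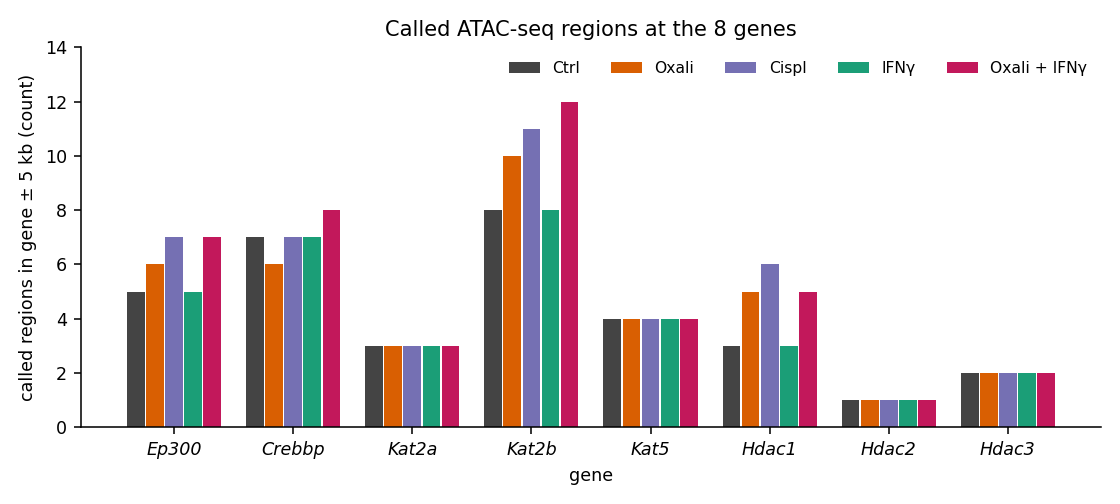
Number of called regions within each gene and 5 kb on either side (vertical axis, count), with 1 bar per pooled list. Kat2b had 8 regions in Ctrl and 12 after Oxali + IFNγ, and Hdac1 had 3 in Ctrl and 6 after Cispl, while Kat2a, Kat5, Hdac2 and Hdac3 had 3, 4, 1 and 2 regions in every list.

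The difference in number was made at 4 genes. Ep300 had 5 regions in Ctrl, 6 after Oxali, 7 after Cispl, 5 after IFNγ and 7 after Oxali + IFNγ. Kat2b had 8, 10, 11, 8 and 12 in that order. Hdac1 had 3, 5, 6, 3 and 5, and Crebbp had 7, 6, 7, 7 and 8. Kat2a, Kat5, Hdac2 and Hdac3 held the same number in each list.

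The median level was lower in every treated list. That of the called regions at the 5 acetyltransferase genes was 18.6 in Ctrl, 18.2 after Oxali, 14.2 after Cispl, 16.1 after IFNγ and 14.1 after Oxali + IFNγ. At the 3 deacetylase genes, whose few regions in Ctrl were mostly start sites, the median level was 100 in Ctrl, 40.1 after Oxali, 22.6 after Cispl, 60.2 after IFNγ and 31.0 after Oxali + IFNγ. Around all genes the median level was 8.90, 8.52, 7.19, 8.42 and 7.59 in the same order, also lower in every treated list. These medians take in the weak regions present in the platinum lists alone, so the regions are given one by one below.

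The start of Ep300 (chr15:81585351-81652077, plus strand, mm10) lay in an open region, chr15:81584876-81586510. Its pileup was 1627 in Ctrl, 921 after Oxali, 957 after Cispl, 768 after IFNγ and 675 after Oxali + IFNγ, and its level was 134, 81.7, 69.5, 79.8 and 52.3. The Ctrl list was highest and the combination lowest. The ratio to Ctrl was 0.610 after Oxali (0.562 to 0.661), 0.519 after Cispl (0.478 to 0.562), 0.596 after IFNγ (0.546 to 0.649) and 0.390 after Oxali + IFNγ (0.356 to 0.427). Among all pairs of treated lists, Oxali and IFNγ could not be told apart by counting error at this site, the ratio of IFNγ to Oxali being 0.977 (0.887 to 1.08).

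Crebbp (chr16:4081328-4213997, minus strand) had a start-site pileup of 1224 in Ctrl, 744 after Oxali, 855 after Cispl, 526 after IFNγ and 579 after Oxali + IFNγ, at levels of 101, 66.0, 62.1, 54.7 and 44.9. The order was that of Ep300 except that IFNγ lay below both drugs. Ratios to Ctrl were 0.655 (0.597 to 0.718), 0.616 (0.564 to 0.673), 0.542 (0.489 to 0.601) and 0.445 (0.402 to 0.492) after Oxali, Cispl, IFNγ and Oxali + IFNγ. Cispl and Oxali were not separated by counting error here, with a ratio of Cispl to Oxali of 0.941 (0.852 to 1.04).

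Since these starts were the most open regions of both genes in Ctrl and were lower in every treated list, the 250 bases before the annotated start (GENCODE basic transcripts) of Ep300 and of Crebbp are shown, 5′ to 3′ on the strand of the gene, with matches to the searched motifs in capitals. The summit of the Ctrl list lay 208 bp before the start of Ep300 and 126 bp before that of Crebbp, inside these stretches. In Ep300 the first start of the basic transcripts lies inside the gene span given above, so the end of its stretch overlaps that span.
Ep300 (chr15:81585147-81585396, plus strand, GRCm38.p6): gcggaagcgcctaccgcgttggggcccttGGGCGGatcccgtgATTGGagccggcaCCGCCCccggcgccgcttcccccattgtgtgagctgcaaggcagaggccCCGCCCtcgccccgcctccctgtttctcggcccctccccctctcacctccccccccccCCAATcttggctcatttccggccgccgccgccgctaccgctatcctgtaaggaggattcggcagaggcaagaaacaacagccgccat
Crebbp (chr16:4213998-4214247, minus strand, GRCm38.p6): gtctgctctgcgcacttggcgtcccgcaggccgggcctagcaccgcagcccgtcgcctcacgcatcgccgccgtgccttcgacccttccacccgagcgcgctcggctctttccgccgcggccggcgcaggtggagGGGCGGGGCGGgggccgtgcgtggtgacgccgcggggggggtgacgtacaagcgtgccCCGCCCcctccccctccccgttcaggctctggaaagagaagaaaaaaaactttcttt
The capitals mark the GC-box GGGCGG, found 3 times in each, and the CCAAT box CCAAT, found 2 times in Ep300, on either strand. In Crebbp 2 of the GC-boxes overlap by 1 base. G and C made up 69.6% of the bases in Ep300 and 71.2% in Crebbp. Among the 250 bases before the start of all 21938 protein-coding genes, 39.0% held a GC-box and 36.0% a CCAAT box. The other 8 motifs searched on both strands gave no exact match in these letters. They were the AP-1 site TGANTCA (held by 6.05% of all promoters), the cyclic AMP response element TGACGTCA (1.96%), the E-box CACGTG (6.53%), the STAT site TTCNNNGAA (7.23%), the ETS site CCGGAAGT (3.23%), and the consensus sequences of NF-κB (4.24%), ISRE (0.729%) and NRF1 (1.27%).

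Kat2a (chr11:100704746-100712465, minus strand) had a pileup of 916 in Ctrl, 528 after Oxali, 632 after Cispl, 460 after IFNγ and 502 after Oxali + IFNγ at its start, a region that also lies within 1 kb of a start of Hspb9. The level was 75.5 in Ctrl and between 38.9 and 47.8 in the treated lists, all below Ctrl. The ratios were 0.621, 0.609, 0.634 and 0.516 in the order given. Kat5 (chr19:5603014-5610237, minus strand) had 1359, 770, 850, 697 and 627, and its ratios were 0.610, 0.552, 0.647 and 0.434. At both genes the combination gave the lowest level, while IFNγ and Oxali were not separated by counting error, at a ratio of IFNγ to Oxali of 1.02 (0.899 to 1.16) for Kat2a and 1.06 (0.956 to 1.18) for Kat5.

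Hdac1 (chr4:129516104-129542713, minus strand) had the highest Ctrl level of the 8 genes at its start, 135, from a pileup of 1642. The treated lists had pileups of 844 (Oxali), 889 (Cispl), 723 (IFNγ) and 675 (Oxali + IFNγ), at levels of 74.9, 64.6, 75.1 and 52.3, all far below Ctrl. Its ratios were the lowest of the 8 genes with Oxali, Cispl and Oxali + IFNγ: 0.554 (0.509 to 0.602), 0.478 (0.440 to 0.518) and 0.387 (0.353 to 0.423). With IFNγ the ratio was 0.556 (0.508 to 0.607).

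Hdac2 (chr10:36974544-37001889, plus strand) held 1 region in its whole window, at its start, with a pileup of 1405 in Ctrl, 982 after Oxali, 1058 after Cispl, 697 after IFNγ and 684 after Oxali + IFNγ. Its ratios were 0.753 (0.693 to 0.817), 0.664 (0.613 to 0.720), 0.626 (0.571 to 0.686) and 0.458 (0.417 to 0.502). With Oxali it was thus less far from Ctrl than its partner Hdac1. Hdac3 (chr18:37935844-37955016, minus strand) shares its start-site region with Rell2, and had pileups of 1033, 653, 660, 518 and 517 in the same order of lists. The Ctrl list was again apart from the others, at ratios of 0.681, 0.564, 0.633 and 0.471.

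Kat2b (chr17:53566861-53672720, plus strand) stood apart. Its start-site region had a pileup of 783 in Ctrl, 881 after Oxali, 903 after Cispl, 541 after IFNγ and 843 after Oxali + IFNγ, at levels of 64.5, 78.2, 65.6, 56.2 and 65.3. Oxali was above Ctrl, IFNγ below it, and the other lists lay within counting error of Ctrl. The ratio was 1.21 after Oxali (1.10 to 1.34), 1.02 after Cispl (0.923 to 1.12), 0.872 after IFNγ (0.780 to 0.974) and 1.01 after Oxali + IFNγ (0.918 to 1.12).

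**Figure D2:**
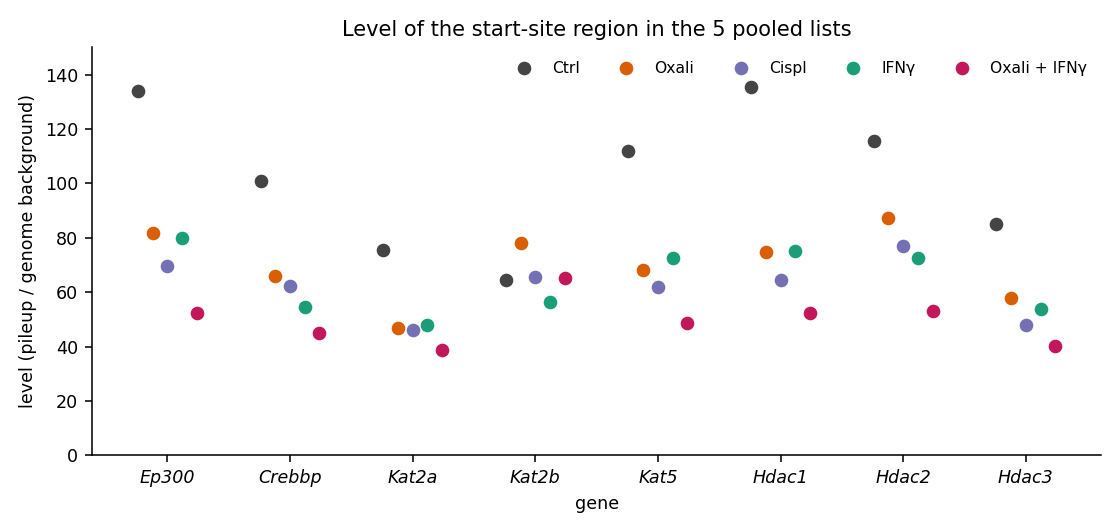
Level of the start-site region (vertical axis, pileup over genome background) of each gene, 1 point per pooled list, with no replicates. The Ctrl point is the highest at 7 genes and Oxali + IFNγ the lowest there, from 53.0 at Hdac2 to 38.9 at Kat2a, while at Kat2b the 5 points lie between 56.2 and 78.2.

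In all, the start-site region was lower than Ctrl by 1.5-fold or more at 5 of the 8 genes with Oxali and at 7 of 8 after Cispl, after IFNγ and after Oxali + IFNγ. It was higher by that factor at none. Most of these calls ended under the alternatives. By the deposited fold over the local background 0, 1, 0 and 1 of the 8 starts were lower by 1.5-fold (Hdac1 after Cispl and Hdac3 after Oxali + IFNγ). Scaled by the median start site given below, 0, 0, 0 and 1 were lower (Hdac1), and Kat2b was higher after Oxali, Cispl and Oxali + IFNγ. Lower starts were also common elsewhere. Of the start-site regions of all protein-coding genes called in both lists, 26.4% were lower and 7.49% higher with Oxali, 47.9% lower and 6.36% higher with Cispl, 38.5% lower and 0.673% higher with IFNγ, and 59.6% lower and 8.03% higher with Oxali + IFNγ. Over the 13102 start-site regions called in all lists the median ratio to Ctrl was 0.759 after Oxali, 0.667 after Cispl, 0.703 after IFNγ and 0.580 after Oxali + IFNγ, which is a log2 shift of -0.40, -0.58, -0.51 and -0.78. Relative to that shift, the 7 genes other than Kat2b were still below the median start site in every treated list, at 0.666 to 0.996 of it, although the counting interval reached 1 for Hdac2 after Oxali and Cispl, Crebbp after Cispl, Kat2a after Cispl and IFNγ, and Kat5 and Hdac3 after IFNγ. By the deposited fold over the local background these 7 genes were also below Ctrl, at 0.643 to 0.874. Kat2b was at 1.60, 1.53, 1.24 and 1.74 times the median start site with Oxali, Cispl, IFNγ and Oxali + IFNγ, so that IFNγ turned from below to above 1 under that scaling. By the deposited fold Kat2b was at 1.06, 0.953, 0.954 and 1.01 of Ctrl, so that Cispl turned from just above to just below 1.

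**Figure D3:**
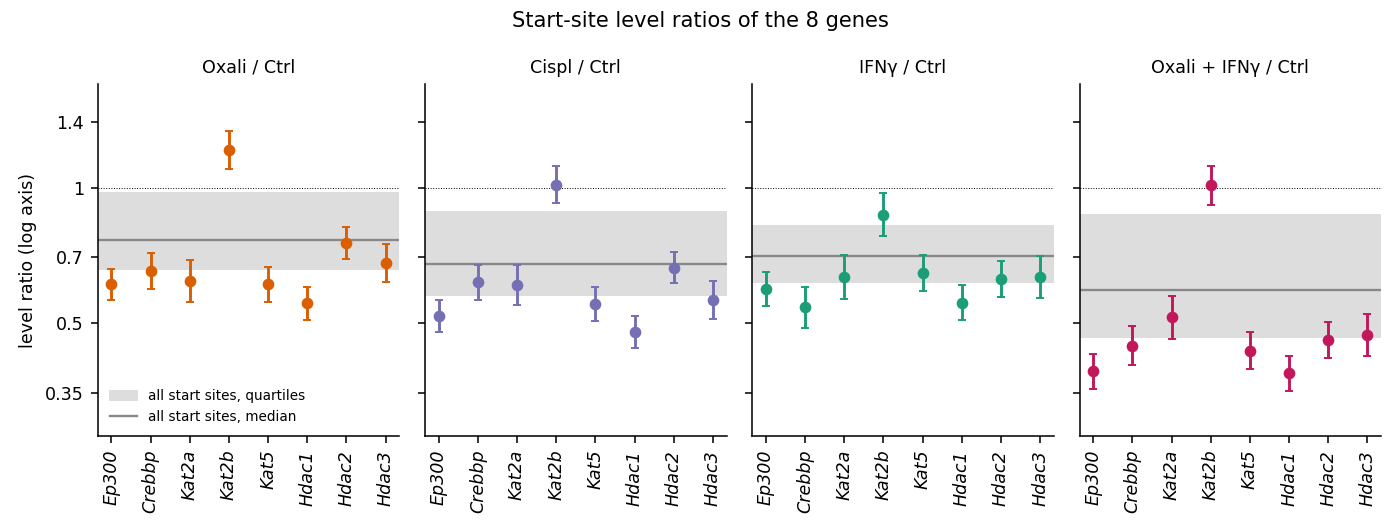
Ratio of the start-site level to Ctrl (log axis) for each gene, 1 panel per treatment, with 95% intervals for counting error. The line and the band are the median and the quartiles of all start-site regions called in both lists, and the dotted line is a ratio of 1. Hdac1 lies below the band in each panel (0.554 after Oxali, 0.387 after Oxali + IFNγ) and Kat2b above it in each.

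Start sites that were more open in Ctrl were further below Ctrl in the treated lists, so each gene was also set beside starts of a similar Ctrl level, which is itself the denominator of the ratios. Ep300, Crebbp, Kat5, Hdac1 and Hdac2 fell in the fourth of 5 classes by Ctrl level (98.9 to 140), which held 2614 start sites. The median ratio of that class was 0.689 after Oxali, 0.602 after Cispl, 0.661 after IFNγ and 0.493 after Oxali + IFNγ. Lower by 1.5-fold or more were 40.6%, 78.7%, 52.1% and 91.0% of its start sites in the same order. Ep300, Kat5 and Hdac1 were below the class median with every treatment. Crebbp was above it with Cispl (0.616) and below it with the others. Hdac2 was above it with Oxali and Cispl (0.753 and 0.664) and below it with IFNγ and Oxali + IFNγ. The counting interval took in the class median for Crebbp after Oxali and Cispl, Kat5 after IFNγ, and Hdac2 after IFNγ and Oxali + IFNγ. Kat2a, Kat2b and Hdac3 were in the third class (63.2 to 98.8), with medians of 0.752, 0.661, 0.680 and 0.557. In this class 23.0%, 52.3%, 44.4% and 75.2% of the start sites were lower by 1.5-fold or more. Kat2a and Hdac3 were below these medians and Kat2b above them in each list. The interval took in the median for Kat2a after Cispl, IFNγ and Oxali + IFNγ and for Hdac3 after IFNγ.

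Where in the start-site region the level differed was read from summits within 60 bp of each other in Ctrl and the treated list, a description chosen after the values had been seen. In Ep300, the Ctrl summits 208 bp and 11 bp before the start had levels of 134 and 115, and after Oxali + IFNγ these were 43.5 and 52.3. Inside the gene, the summit at 292 bp had 36.9 in Ctrl and 23.1 after Oxali + IFNγ, a ratio of 0.626, and the summit at 548 bp had 46.5 and 42.4, a ratio of 0.911. A further summit at 958 bp had 33.5 in Ctrl, 41.4 after Oxali, 35.0 after Cispl and 33.3 after Oxali + IFNγ. Crebbp was alike in this: the summit 126 bp before its start had ratios of 0.655, 0.616, 0.526 and 0.384 after Oxali, Cispl, IFNγ and Oxali + IFNγ, and the summit 623 bp inside it had 1.07, 1.08, 0.801 and 0.875. The summit 378 bp before the start of Crebbp was below Ctrl in every list too, at 0.669, 0.610, 0.623 and 0.511. The summit 208 bp inside Crebbp had 0.758, 0.936, 0.974 and 0.576, and the one at 1001 bp had 0.941, 0.935, 0.924 and 0.722, the last with an interval of 0.581 to 0.897. In both paralogs the summits before the start were thus further below Ctrl than those beyond 500 bp inside the gene.

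At Kat2b the highest summit of the region lay 1433 bp inside the gene, in the first intron, in Ctrl, and the ratios near 1 given above were those of this summit. The summit 29 bp from the start had a pileup of 586 in Ctrl, 490 after Oxali, 450 after Cispl, 403 after IFNγ and 471 after Oxali + IFNγ. All treated lists were below Ctrl there, with ratios of 0.901, 0.677, 0.868 and 0.756. Those of the summit 1046 bp inside the gene were 1.65, 1.19, 0.807 and 1.26, and those of the summit at 1704 bp were 1.51, 1.21, 1.12 and 1.41. Read at the start itself, Kat2b was thus below Ctrl with each treatment, although after Oxali the interval reached 1.02, and its 4 ratios there were above the medians of 0.740, 0.663, 0.703 and 0.568 of all genes within 250 bp of the start.

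Over the 8 genes, every matched summit within 250 bp of a start was below Ctrl: 12 of 12 after Oxali (median ratio 0.667), 13 of 13 after Cispl (0.609), 12 of 12 after IFNγ (0.640) and 12 of 12 after Oxali + IFNγ (0.464). The all-gene medians in this bin were higher in every list, but the all-gene upper quartiles of 0.879, 0.807, 0.802 and 0.753 were also below 1. Most summits this near to any start were thus below Ctrl, and some of those counted at the 8 genes came from the same gene. From 250 to 1000 bp inside the genes the medians of the 8 genes were 0.861, 0.842, 0.844 and 0.777, and those of all genes 0.924, 0.901, 0.814 and 0.810. Between 1000 and 2000 bp only Kat2b and Crebbp had summits, 4 in all, with medians of 1.36, 1.10, 0.898 and 1.14 beside 1.06, 1.00, 0.868 and 1.01 for all genes. From 1000 to 250 bp before the start the medians were 0.799, 0.785, 0.703 and 0.694 at the 8 genes and 0.887, 0.847, 0.829 and 0.778 at all genes. The ratios of genes in general were thus lowest around the start in every treated list, and higher on either side of it.

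**Figure D4:**
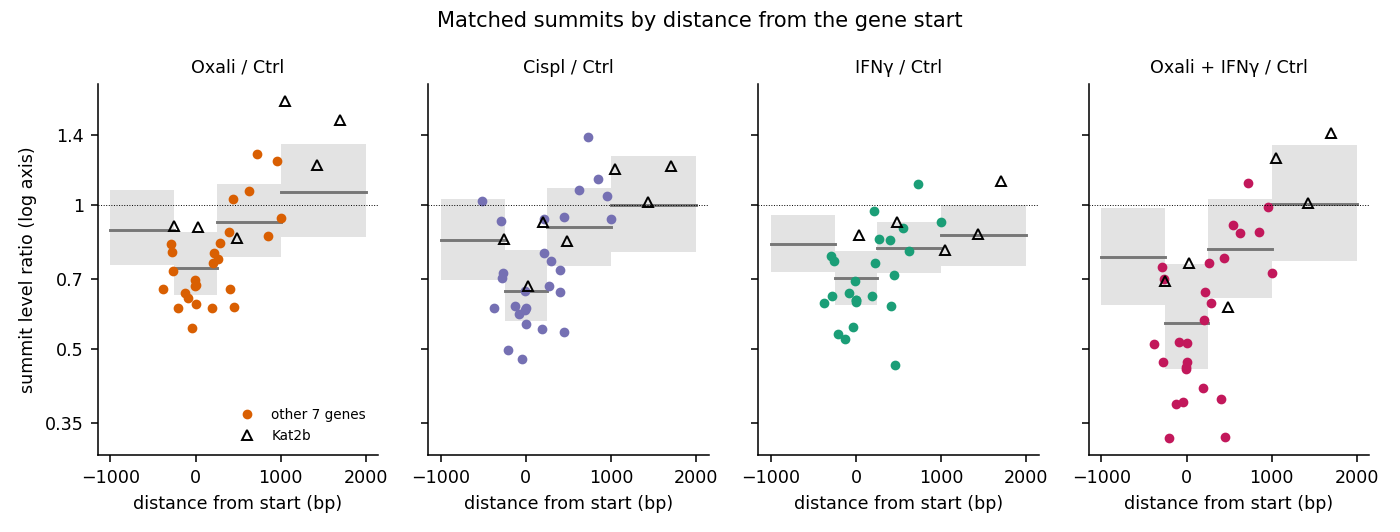
Level ratio to Ctrl (log axis) of matched summits against their distance from the gene start (bp, positive inside the gene), 1 panel per treatment, with Kat2b as open triangles and the other 7 genes as points. Grey lines and bands are the median and quartiles over all protein-coding genes in 4 distance bins. All points within 250 bp of a start lie below 1, as does the grey band there, down to 0.325 after Oxali + IFNγ at Ep300. The Kat2b points beyond 1000 bp lie between 0.807 and 1.65.

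Regions were then compared by presence. A region was gained when it was strong (q-value of at most 0.01) in the treated list and held no call in Ctrl, and lost in the reverse case. Oxali gave 7 gained regions among the 39 that were strong in either list (17.9%), beside 26.1% around all protein-coding genes, and 2 lost (5.13%, beside 6.41%). Cispl gave 9 gained of 41 (22.0%, beside 33.8%) and 0 lost (beside 3.62%). IFNγ gave 2 gained of 34 (5.88%, beside 9.17%) and 2 lost (beside 13.4%). Oxali + IFNγ gave 10 gained of 42 (23.8%, beside 32.5%) and 0 lost (beside 5.06%). Away from start sites, which were more frequent among the regions of the 8 genes, the gained shares were 25.0%, 33.3%, 10.0% and 33.3%, beside 29.0%, 37.0%, 10.0% and 35.4% around all genes.

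All gained regions lay in the windows of Ep300, Crebbp, Kat2b and Hdac1, which span 76.7, 143, 116 and 36.6 kb. Those of Kat2a, Kat5, Hdac2 and Hdac3 span 17.7, 17.2, 37.3 and 29.2 kb, and the part of window length was not tested. Ep300 had 2 after Oxali, 3 after Cispl, 1 after IFNγ and 3 after Oxali + IFNγ. Kat2b had 2, 3, 0 and 4 in this order, Hdac1 had 2, 3, 0 and 2, and Crebbp 1, 0, 1 and 1. The region counted for Crebbp after Oxali and after Oxali + IFNγ (chr16:4078370-4078527) lay outside that gene, at the start of its neighbour Trap1. It was 173 bp from a Ctrl call. The gained regions were weak beside the start sites, with a median pileup of 81 after Oxali, 61 after Cispl and 91.5 after Oxali + IFNγ. Scaled for depth, 6 of 7, 8 of 9, 2 of 2 and 9 of 10 exceeded the pileup needed at the nearest Ctrl call. The 2 regions lost with Oxali and the 2 lost with IFNγ were all in introns of Crebbp, with Ctrl pileups of 39 to 53. The same region, chr16:4168584-4168792, is counted in both. The other region lost with Oxali (chr16:4153664-4153843) lay 162 bp from an Oxali call, where the local background was 16.9. More than 50% of the bases were marked as repeats in 1 of 7, 3 of 9, 0 of 2 and 3 of 10 gained regions, and in 16.2%, 16.5%, 14.7% and 13.8% of those around all genes.

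Of the 48 regions, 1 was called in all 4 treated lists and not in Ctrl, a pattern held by 2.29% of regions around all genes. It covered the end of the first exon of Ep300 (chr15:81586578-81586752), and its pileup was 200 after Oxali, 203 after Cispl, 130 after IFNγ and 181 after Oxali + IFNγ. It lay 86 bp from the called start-site interval of Ctrl, where the local background was 123 and a call would have needed a pileup of 149. The local background there was 87.7 after Oxali, 101 after Cispl, 66.2 after IFNγ and 75.1 after Oxali + IFNγ. How far the missing call in Ctrl follows from its higher local background was not tested.

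Present in the 3 platinum lists and in neither Ctrl nor IFNγ were 4 of the 48 regions, beside 10.2% of the regions around all genes. In Ep300, chr15:81611089-81611560 had pileups of 55 (Oxali), 54 (Cispl) and 47 (Oxali + IFNγ), where a call in Ctrl needed 21. It spans a whole coding exon of 114 bp, with its summit 4 bp before that exon. In Kat2b, chr17:53569815-53570069 had 141, 199 and 187 in the first intron, 1044 bp beyond the Ctrl start-site interval, where a call needed 110. In Hdac1, chr4:129519653-129519997 had 59, 93 and 61 in an intron, and chr4:129511849-129512448 had 89, 127 and 106 downstream of the gene. At the Ctrl call nearest to both, a pileup of 51 was needed.

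**Figure D5:**
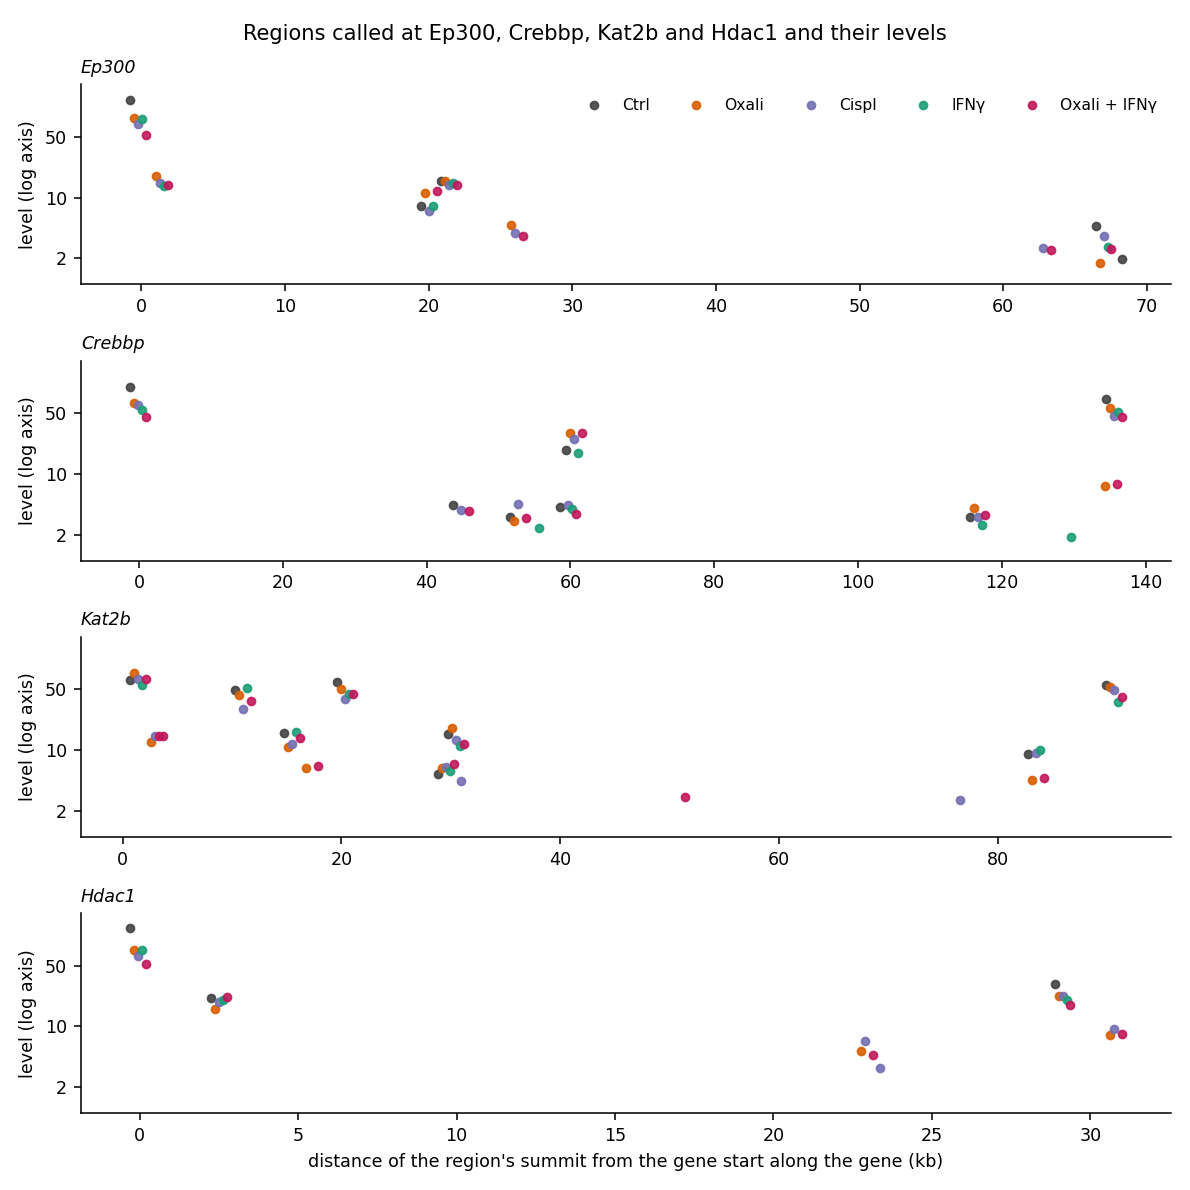
Level (log axis) of every called region of Ep300, Crebbp, Kat2b and Hdac1 against the distance of its summit from the gene start along the gene (kb). Each point is 1 region in 1 pooled list, and the points of a region are set slightly apart sideways, so that a region without a Ctrl point was not called in Ctrl. Regions missing in Ctrl are at levels below 20, and those at the starts reach 134 at Ep300 and 135 at Hdac1.

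Among regions called in Ctrl and a treated list, 1 was higher by 1.5-fold or more, in an intron of Crebbp 60.5 kb from its start (chr16:4152546-4153501). Its pileup was 226 in Ctrl, 329 after Oxali, 344 after Cispl, 167 after IFNγ and 383 after Oxali + IFNγ, at levels of 18.6, 29.2, 25.0, 17.4 and 29.7. The platinum lists were above Ctrl, while IFNγ was close to it. The ratio was 1.57 after Oxali (1.32 to 1.87), 1.34 after Cispl (1.13 to 1.59), 0.932 after IFNγ (0.759 to 1.14) and 1.59 after Oxali + IFNγ (1.35 to 1.89). Scaled by the median start site these ratios were 2.07, 2.01, 1.33 and 2.75, and by the deposited fold 1.41, 1.17, 1.01 and 1.34, so that only IFNγ changed direction and the deposited fold left no list past 1.5-fold. At the start of the same gene the ratios lay between 0.445 and 0.655. An intronic region of Ep300 (chr15:81605058-81605808) had 98, 128, 96, 76 and 153, so that Oxali and Oxali + IFNγ were above Ctrl at 1.41 (1.07 to 1.85) and 1.47 (1.13 to 1.91). Cispl was not, at 0.864 (0.645 to 1.16), nor IFNγ, at 0.978. Scaled by the median start site the ratios were 1.85 after Oxali, 1.30 after Cispl, 1.39 after IFNγ and 2.53 after Oxali + IFNγ, so that Cispl and IFNγ changed direction.

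Lower regions away from starts numbered 2 with each treatment. This was 12.5%, 11.1%, 12.5% and 11.1% of the regions away from starts called in both lists, beside 5.00%, 6.36%, 16.2% and 7.61% around all genes after Oxali, Cispl, IFNγ and Oxali + IFNγ. In Kat2b, an intronic region (chr17:53649992-53650950) had a pileup of 110 in Ctrl, 51 after Oxali, 129 after Cispl, 97 after IFNγ and 62 after Oxali + IFNγ. Both lists with oxaliplatin were below Ctrl, at 0.499 (0.351 to 0.702) and 0.530 (0.382 to 0.730), and the Cispl list was not, at 1.03 (0.796 to 1.35). Scaled by the median start site, Oxali was at 0.658 (0.463 to 0.925) and Oxali + IFNγ at 0.913 (0.658 to 1.26), the latter interval reaching past 1, while Cispl and IFNγ were then higher, at 1.55 and 1.58, each with a lower bound of 1.19. Downstream of Ep300, chr15:81652127-81652484 had 57, 20, 49, 26 and 33, at ratios of 0.378 (0.215 to 0.639), 0.758, 0.575 and 0.545, which became 0.498, 1.14, 0.819 (0.494 to 1.32) and 0.938 (0.592 to 1.47) when scaled by the median start site, so that only the call after Oxali held. Another intronic Kat2b region (chr17:53577284-53578949) was lower with Cispl alone, with pileups of 603, 483, 410, 503 and 479 and a ratio of 0.600 (0.528 to 0.681) after Cispl, or 0.899 (0.791 to 1.02) when scaled by the median start site.

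Reference bases around the summits are shown for the region of each of 4 genes that carried these differences: the intronic Crebbp region and the platinum regions of Ep300, Kat2b and Hdac1. Each holds the summit of the list with the highest level and 75 bases on either side (GRCm38.p6, 5′ to 3′ on the strand of the gene), with motif matches in capitals.
Ep300, chr15:81611331-81611481, plus strand: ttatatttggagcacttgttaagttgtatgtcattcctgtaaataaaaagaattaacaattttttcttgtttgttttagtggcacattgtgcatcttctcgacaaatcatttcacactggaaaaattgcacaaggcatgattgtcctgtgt
Crebbp, chr16:4152818-4152968, minus strand: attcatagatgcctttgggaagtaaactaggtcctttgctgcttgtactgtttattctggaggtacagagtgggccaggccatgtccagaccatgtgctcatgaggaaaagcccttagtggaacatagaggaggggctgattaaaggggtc
Kat2b, chr17:53569856-53570006, plus strand: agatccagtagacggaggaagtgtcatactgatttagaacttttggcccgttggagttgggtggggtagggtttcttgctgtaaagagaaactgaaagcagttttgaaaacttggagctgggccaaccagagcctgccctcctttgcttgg
Hdac1, chr4:129519743-129519893, minus strand: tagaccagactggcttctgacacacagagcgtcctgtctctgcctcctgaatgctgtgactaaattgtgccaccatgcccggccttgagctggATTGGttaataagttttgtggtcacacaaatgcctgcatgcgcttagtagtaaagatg
The only exact match was 1 CCAAT box in Hdac1. Shorter or looser forms of a site, the ISRE included, were not searched. Among windows of the same length at 185869 strong regions away from start sites, 16.8% held a CCAAT box, 20.7% the AP-1 site, 4.50% the STAT site, 4.29% a GC-box, 2.87% the E-box and 1.93% the NF-κB site, and the other 4 motifs were each in less than 1% of them. The reference marks 53.0% of the Hdac1 window and 29.8% of the Ep300 window as repeats, against 0.0% for Crebbp and Kat2b. G and C made up 32.5% of the bases in Ep300, 48.3% in Crebbp, 49.0% in Kat2b and 49.0% in Hdac1.

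Counted over all regions called in both lists, 1 of 30 was higher with Oxali (beside 26.0% around all protein-coding genes) and 8 were lower (26.7%, beside 9.46%). With Cispl 0 of 32 were higher (beside 23.8%) and 11 lower (34.4%, beside 14.8%). With IFNγ 0 of 30 were higher (beside 3.4%) and 13 lower (43.3%, beside 21.2%). With Oxali + IFNγ 1 of 32 was higher (beside 27.0%) and 14 were lower (43.8%, beside 18.3%). The median ratio was 0.783, 0.817, 0.740 and 0.734, beside 1.08, 1.05, 0.828 and 1.07 for all genes. Scaled by the median start site instead, 6 were higher and 2 lower with Oxali, 8 and 0 after Cispl, 2 and 1 after IFNγ and 10 and 2 after Oxali + IFNγ, and the median ratio turned to 1.03, 1.22, 1.05 and 1.27. This scaling moves the regions of all genes alike. Of these, 45.7%, 54.5%, 21.1% and 65.5% were then higher and 0.888%, 0.568%, 1.75% and 2.18% lower, with medians of 1.42, 1.58, 1.18 and 1.84. By the deposited fold over the local background, 2, 2, 1 and 6 regions of the 8 genes were lower (6.67%, 6.25%, 3.33% and 18.8%), beside 4.89%, 6.88%, 12.9% and 10.9% around all genes. The larger share of lower regions at the 8 genes was thus not there with Cispl by this measure and turned to a smaller share with IFNγ. Start sites, the neighbours' included, made up 14 of the 30 regions with Oxali, against 13558 of 65005 around all genes. Away from starts the median ratio at the 8 genes was 0.925 after Oxali, 0.884 after Cispl, 0.936 after IFNγ and 0.864 after Oxali + IFNγ over 16, 18, 16 and 18 regions, beside 1.18, 1.15, 0.870 and 1.18.

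Oxaliplatin and cisplatin, both given at 2 µM for 48 h, differ in the ligands around platinum, a diaminocyclohexane and an oxalate in the former and ammines and chlorides in the latter. At the 8 starts the level with Cispl was below that with Oxali in 8 of 8 genes, from 0.828 at Hdac3 (0.742 to 0.924) to 0.980 at Kat2a (0.872 to 1.10), and the counting interval excluded 1 at 6 of them. For Crebbp and Kat2a it did not. The median over the 8 genes was 0.873, as over all 13102 start sites (0.873, with 84.6% below 1). Set against Oxali alone, Oxali + IFNγ was lower at 8 of 8 genes, by a median ratio of 0.695, beside 0.772 over all start sites, of which 86.7% were below 1. The lowest was Hdac2 at 0.608 (0.551 to 0.671) and the highest Kat2b at 0.836 (0.760 to 0.920). Against IFNγ alone, the combination was lower at 7 of 8 genes, with Kat2b at 1.16 (1.04 to 1.30), and the median was 0.738, beside 0.831 over all start sites, of which 71.1% were below 1. No replicate spread stands behind these ratios.

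The starts of other genes of the pathway are given by list, to be read against the 26.4%, 47.9%, 38.5% and 59.6% of all start sites that were lower. Of 9 further acetyltransferase genes, 5 were lower by 1.5-fold with Oxali, 7 after Cispl, 6 after IFNγ and 9 after Oxali + IFNγ, and none higher. Scaled by the median start site only Kat6a stayed lower, at 0.646 after IFNγ and 0.544 after Oxali + IFNγ. Kat6a, a MYST family acetyltransferase, had a pileup of 1292 in Ctrl and 434 after Oxali + IFNγ, a ratio of 0.316 (0.283 to 0.353), the lowest of this list, and its relative Kat6b had 0.408. Of 12 further deacetylase genes with a start-site region, 4, 7, 5 and 8 were lower and none higher, with Hdac5, a class II deacetylase, at 0.342 and Hdac6, which acts on tubulin, at 0.378 after Oxali + IFNγ. Scaled by the median start site only these stayed lower, at 0.590 and 0.652, and only after Oxali + IFNγ. Hdac7, Hdac10, Hdac11 and Sirt7 were lower by 1.5-fold in no list, and Hdac10 was at 0.936 (0.863 to 1.01) after Oxali + IFNγ. The counts of these deacetylase genes were near the share of all start sites in each list. So were those below of both partner lists with Oxali, of the deacetylase partners after Cispl and IFNγ and of the readers after IFNγ. Of 14 acetyltransferase complex partners, 4, 11, 10 and 14 were lower, among them Brpf1 at 0.383 and Ing3 at 0.386 after Oxali + IFNγ, and of 16 deacetylase complex partners 4, 9, 7 and 13, among them the scaffold Sin3a at 0.389. Of the 5 bromodomain readers, 3, 3, 2 and 5 were lower, with Brd2 at 0.391 after Oxali + IFNγ. Bag6, a chaperone that binds p300, was at 0.377. By level, none of the 57 further genes was higher in any list. Scaled by the median start site some passed 1.5-fold, among them Hdac10 at 1.61 and Sirt7 at 1.51 after Oxali + IFNγ.

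By their 4 ratios to Ctrl, the starts most like that of Ep300 among 11450 genes were Rbm39, Nr1d2 and Ing3, at a distance of 0.0232 to 0.0305 on the log2 scale, and 52 genes lay within 0.1. The closest to Crebbp were Larp1, Nol7 and Alkbh4, at 0.0432 to 0.0530. The paralogs were 0.355 apart, and 2298 genes were closer to Ep300 than Crebbp was.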

How the data were processed

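Peak lists of 5 groups were analysed, each pooled by the authors from 2 ATAC-seq libraries (10 in all). Per the study's methods, reads were trimmed, aligned to mm10 with Bowtie2 2.2.8, filtered at a mapping quality of 30, freed of duplicates and mitochondrial reads, and peaks were called with MACS2 2.1.0 on 150 bp windows at p 0.01 with no control library, then filtered by a blacklist. The deposited columns used were the ratio of pileup to local background (fold enrichment), −log10 p-values, −log10 q-values and the summit position. From the deposited ratio and −log10 p, the whole-number pileup and the background were solved for every peak and checked on simulated data. Intervals sharing at least 1 bp were merged across lists, and regions were assigned with GENCODE M21 to genes extended by 5 kb, and to starts within 1 kb. Regions with a q-value of 0.01 or less are called strong, and regions called in both lists higher or lower at a level ratio of at least 1.5 or at most 0.667. Sequences came from GRCm38.p6.

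With 1 list a group, no test was run. Regions named were those at starts, those gained, and those with the highest or lowest ratio of each gene and a pileup of at least 50. The likeness of starts is the Euclidean distance of the 4 log2 ratios, over genes with a pileup of at least 100. The 8 genes and the other gene lists were chosen with earlier results of these data known, and the summits by distance, the classes by Ctrl level and the repeat shares were added after values had been seen. Python 3.11.15, numpy 2.4.6, pandas 2.3.3 and scipy 1.17.1 were used. Some marker and pathway genes are not reported here.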

Additional observations from a re-analysis of the deposited data

How the results depend on the processing

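Counts of gained, lost, higher and lower regions and the median ratio were recomputed for each treatment under 9 alternatives, and 115 of 140 values stayed within 1.5 times the count or within counting error. Scaling by the median start site turned the median ratio from 0.783 to 1.03 with Oxali, from 0.817 to 1.225 with Cispl, from 0.740 to 1.05 with IFNγ and from 0.734 to 1.265 with Oxali + IFNγ. Under it 6, 8, 2 and 10 regions were higher and 2, 0, 1 and 2 lower, and around all genes 45.7%, 54.5%, 21.1% and 65.5% were higher. By the deposited fold over the local background, 2, 2, 1 and 6 were lower (beside 4.89%, 6.88%, 12.9% and 10.9% around all genes) and 0 higher with Oxali. The 1 higher region with Oxali + IFNγ was then an intronic one of Hdac1 (1.84, against 1.04 by level) in place of that of Crebbp (1.34). With q at most 1e-05, 1 region was gained with IFNγ. In gene bodies alone 8 were lower with IFNγ and 8 with Oxali + IFNγ. With genes extended by 10 kb, 3 were higher after Oxali, 2 after Cispl and 4 after the combination, which also had 1 lost. Without the start sites of neighbouring genes, an alternative chosen after seeing the data, 9 were lower with Oxali + IFNγ. Apart from what the settings themselves remove or rescale, the cause was not tested. No paired analysis was possible because the libraries of each group were pooled before peaks were called, and for the same reason no library could be left out. With 1 p threshold for all lists the counts with Cispl were as before (9 gained, 0 lost, 0 higher and 11 lower). The part of depth in calling weak regions was not tested.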
